A study of Mus musculus with 18 samples.

Results

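The genes described here are 35 genes of the lysosome, taken by symbol from a fixed list and found among the 23420 rows of a gene count table. Of these, 32 encode enzymes, cofactors and membrane proteins of the lysosome, and Tfeb, Tfe3 and Mitf encode transcription factors that act on such genes. A filter on low counts left 11762 genes for testing, among them 34 of the 35, and Ctsf did not pass it. RNA had been sequenced from NIH-3T3 cells, an immortalised line of mouse embryonic fibroblasts, either wild-type (WT) or carrying a knockout of Nrf1 (Nrf1-KO) that was made with CRISPR/Cas9. Each line was sampled in DMSO (the vehicle), after 6 h in 200 nM carfilzomib (CFZ) and after 24 h in 200 nM CFZ, with 3 biological replicates in each of the 6 groups and 18 libraries in all. CFZ is a drug that binds the proteasome irreversibly and blocks its activity. The labels give no time in DMSO, and the same 3 DMSO libraries of a line served both CFZ times. Each genotype was represented by 1 cell line, so an effect of the knockout and any other difference between the lines cannot be told apart.

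The lysosome is the acidic organelle in which cells take apart proteins, glycans, lipids and material delivered by endocytosis and autophagy. Its soluble hydrolases are made in the endoplasmic reticulum, tagged with mannose 6-phosphate and sorted to the lysosome, where a proton pump, the V-ATPase, keeps the pH low. TFEB, TFE3 and MITF bind a palindromic E-box (the CLEAR element) in the promoters of many lysosomal and autophagy genes, and the kinase complex mTORC1, recruited to the lysosomal surface by Rag GTPases, phosphorylates them and keeps them in the cytosol. Where these proteins are in the cell is not seen in RNA counts. Nrf1, encoded by Nfe2l1, is a membrane-bound transcription factor that is released when proteasome activity is low and that binds antioxidant response elements, best known at the genes of the proteasome.

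Total counts per library ran from 8333148 to 23917081, with a median of 14419832. Levels are given as CPM, a gene's counts relative to its library's total after scaling by edgeR's TMM factors, and compare genes between libraries and not with each other. Nfe2l1 itself stood at 457, 437 and 449 CPM in WT DMSO and at 174, 185 and 181 CPM in Nrf1-KO DMSO. It was lower in the Nrf1-KO line in DMSO (log2 fold change ± standard error -1.31 ± 0.034, adjusted p = 1.6e-24), at 6 h (-0.62) and at 24 h (-1.47), but RNA of the gene remained, and gene counts do not show whether it was intact. All 8 fibroblast markers were measured, with a summed level of 32820 to 35670 CPM in WT DMSO and 8090 to 8384 CPM at 24 h, and of 27360 to 33630 and 10820 to 12850 CPM in Nrf1-KO cells. Macrophages are rich in lysosomes, and the 5 macrophage markers in the table summed to 18.5 to 19.6 CPM in WT DMSO and 40.6 to 44.1 CPM at 24 h, and to 25.8 to 27.0 and 59.1 to 59.6 CPM in Nrf1-KO cells. Most of that sum was Cd14 and Lyz2. Of the other macrophage markers, Csf1r reached at most 7.004 CPM in any library, Ptprc, which marks all leukocytes, 1.33 CPM and Itgam 0.111 CPM. Of the epithelial markers, Epcam and Krt18 were at 0 in all 18 libraries and the list summed to 0.333 to 13.03 CPM, nearly all of it Cdh1, and the 3 endothelial markers summed to 0.12 to 3.83 CPM. The part of these marker changes in the results that follow was not tested.

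Lysosomal genes moved mainly at 24 h of CFZ, and most of them moved up in both lines. In WT cells, 21 of the 34 genes tested were higher and 9 were lower at 24 h than in DMSO, with a median log2 fold change of 0.45, against 0.02 over all genes tested. CFZ changed a large share of the transcriptome, with 83.8% of all genes called in this comparison (43.2% higher, 40.5% lower), so the shares of the lysosomal genes (61.8% higher, 26.5% lower) are to be read against those. In Nrf1-KO cells, 21 were higher and 8 were lower at 24 h, with a median of 0.32 against 0.03, where 85.5% of all genes were called (44.4% higher, 41.1% lower). With library size alone in place of TMM the count of lower genes in that line was 13. Calls are those of edgeR's quasi-likelihood test at an adjusted p under 0.05. The summed level of the 32 enzyme, cofactor and membrane protein genes was 6453 ± 193 CPM in WT DMSO, 6799 ± 131 CPM at 6 h and 10130 ± 34 CPM at 24 h (mean ± SD, n = 3). In Nrf1-KO cells the sum was 7498 ± 178, 7211 ± 187 and 11410 ± 253 CPM. In both lines the 3 libraries at 24 h lay above all libraries of the other conditions. A level in CPM is a share of the library, so more lysosomal RNA in a cell and less of other RNA cannot be told apart.

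At 6 h the balance was the opposite. In WT cells 7 of the 34 genes were higher and 18 lower (median -0.11, against -0.02 over all genes), where 71.9% of all genes were called (35.6% higher, 36.2% lower). In Nrf1-KO cells 4 were higher and 18 lower (median -0.11, against -0.01), where 69.5% of all genes were called (34.5% higher, 35% lower). The changes at 6 h were small, and 0 of the 34 were both called and at least 2-fold changed in either line, against 3.98% of all genes higher and 5.65% lower in WT cells and 3.3% and 4.26% in Nrf1-KO cells. At 24 h, 8 called genes were at least 2-fold higher and 2 at least 2-fold lower in WT cells, against 10.5% and 14.5% of all genes. The 8 were Ctsd, Hexa, Gaa, Gla, Manba, Neu1, Psap and Npc1, and the 2 were Arsb and Tfeb. In Nrf1-KO cells 6 were at least 2-fold higher (Ctsl, Gla, Manba, Man2b1, Neu1 and Npc1) and 3 at least 2-fold lower (Naglu, Arsb and Tfeb), against 11.5% and 15.2% of all genes. With any 1 library left out, 29 of the 30 calls in WT cells and all 29 in Nrf1-KO cells at 24 h were kept, the exception being Grn, and 21 of 25 and 16 of 22 at 6 h. These 24 h counts include Manba, which passed the filter on low counts only through its 24 h libraries, and without it 20 of 33 genes were higher in each line (medians 0.44 and 0.32), 7 of them at least 2-fold in WT and 5 in Nrf1-KO cells.

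**Figure D1:**
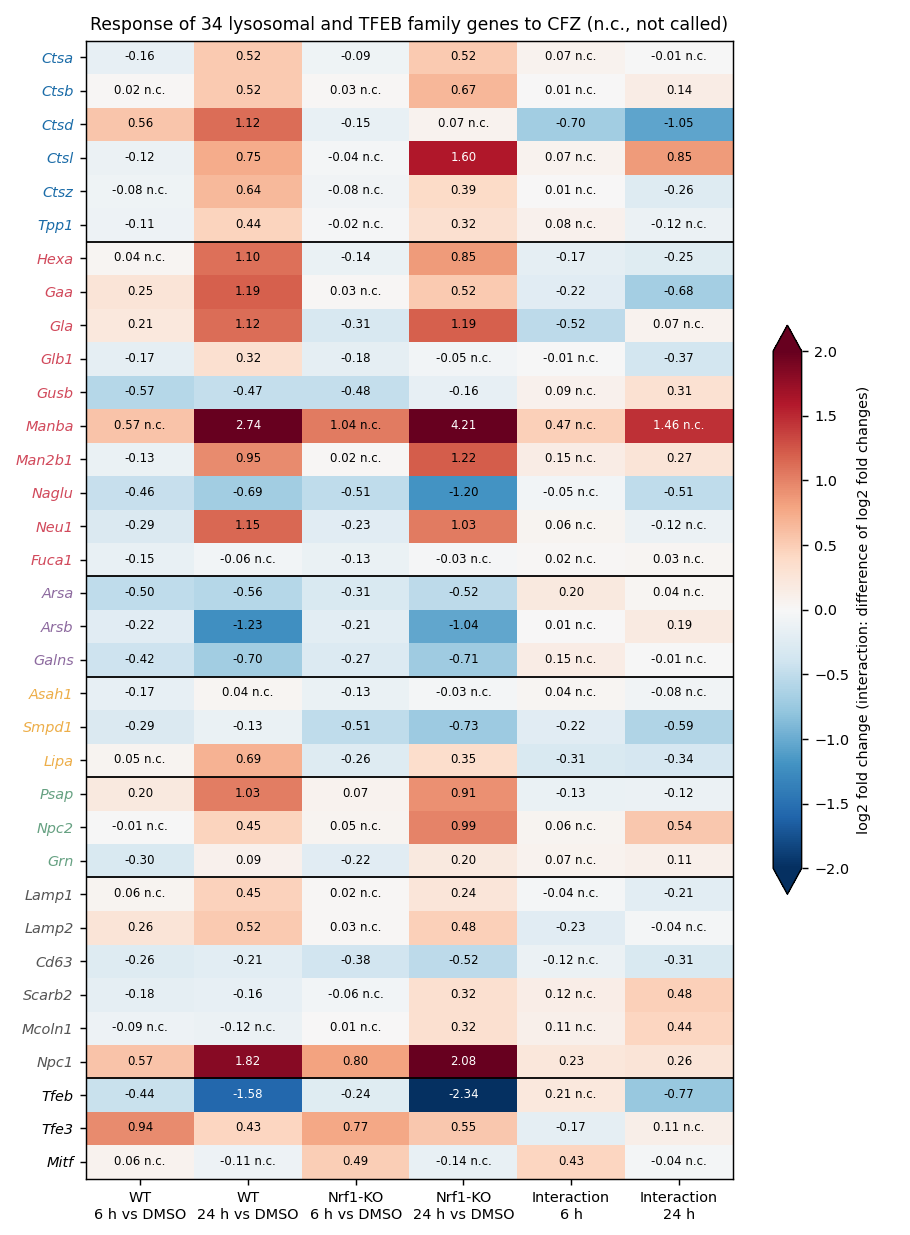
Log2 fold changes of the 34 tested genes (rows, coloured by role) in CFZ against DMSO and in the interaction of genotype and CFZ (Nrf1-KO response minus WT response). Each cell prints its value, and n.c. marks values that were not called. The 24 h columns hold 21 higher genes in each line, whereas the sulfatases Arsa, Arsb and Galns and the transcription factor Tfeb were lower in both lines at both times, the 6 h value of Tfeb in Nrf1-KO cells (-0.24) losing its call without any of 5 libraries.

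Between 6 h and 24 h, 22 genes rose and 5 fell in WT cells, where 72.4% of all genes were called (36.9% higher, 35.4% lower), and 24 rose and 9 fell in Nrf1-KO cells, where 77% were called (38.7% higher, 38.3% lower). At least 2-fold over this step, 5 were higher and 2 lower in WT cells, against 5.16% and 6.92% of all genes, and 6 were higher and 1 lower in Nrf1-KO cells, against 6.56% and 9.22%. These counts include Manba, which passed the filter on low counts only through its 24 h libraries. Without it 21 of 33 genes rose in WT and 23 in Nrf1-KO cells, 4 and 5 of them at least 2-fold. In WT cells, 7 genes were higher at both times (Ctsd, Gaa, Gla, Psap, Lamp2, Npc1 and Tfe3) and 9 were lower at both (Gusb, Naglu, Arsa, Arsb, Galns, Smpd1, Cd63, Scarb2 and Tfeb). Another 7 were lower at 6 h and higher at 24 h (Ctsa, Ctsl, Tpp1, Glb1, Man2b1, Neu1 and Grn), but without 1 library the 6 h calls of Ctsl (-0.09 to -0.08), Tpp1 and Man2b1 and the 24 h call of Grn were lost. In Nrf1-KO cells only Psap, Npc1 and Tfe3 were higher at both times, and the 6 h value of Psap (0.07) came to 0.00 under upper-quartile scaling and to -0.04 when only library size was used, and lost its call without any of 5 libraries (adjusted p = 0.051 to 0.15). In that line 8 genes were lower at both times, the same genes as in WT cells except Scarb2, and 6 were lower at 6 h and higher at 24 h (Ctsa, Hexa, Gla, Neu1, Lipa and Grn). Of these, the 6 h calls of Ctsa (-0.09 to -0.05, adjusted p = 0.077 to 0.25) and Neu1 (-0.22 to -0.13, adjusted p = 0.063 to 0.28) were each lost without any of 3 libraries, and Grn at 24 h was 0.02 and not called when only library size was used. No gene of the 34 was higher at 6 h and lower at 24 h in either line. The shares of all genes with these joint patterns are not given here, so the patterns cannot be read as particular to lysosomal genes. Of all genes, 71.9% were called at 6 h and 83.8% at 24 h in WT cells, and 69.5% and 85.5% in Nrf1-KO cells. Both times were compared with the same DMSO libraries.

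Because TFEB family proteins and Nrf1 act through short DNA motifs, the promoters of the members were searched for both. RefSeq windows of 300 bases (250 before and 50 after the annotated start, GRCm38.p6) were matched by symbol for 31 of the 35 genes, giving 38 windows, and both strands were read. The E-box CACGTG was found in 11 of the 38 windows (28.9%), against 7.15% of 32851 windows of all genes. The longer form TCACGTGA, which contains the E-box, was found in 4 of them (10.5%, against 0.974%) and that form extended by a G before and a C after it in 0 (0.326% of all windows). The core of the antioxidant response element, TGACNNNGC, was found in 8 windows (21.1%, against 12.4%). The windows shown are those of the 4 genes with TCACGTGA and of Lamp1, which held the most E-boxes, 5′ to 3′ on the strand of the gene, with E-boxes (as TCACGTGA where the longer form matched) in capitals and, in Ctsd alone, the antioxidant response element cores on either strand as well. They lie at chr7:142387778-142388077 on the minus strand (Ctsd), chrX:134600956-134601255 on the minus strand (Gla), chr2:164833523-164833822 (Ctsa), chr8:3500269-3500568 (Mcoln1) and chr8:13158911-13159210 (Lamp1) on the plus strand.
Ctsd: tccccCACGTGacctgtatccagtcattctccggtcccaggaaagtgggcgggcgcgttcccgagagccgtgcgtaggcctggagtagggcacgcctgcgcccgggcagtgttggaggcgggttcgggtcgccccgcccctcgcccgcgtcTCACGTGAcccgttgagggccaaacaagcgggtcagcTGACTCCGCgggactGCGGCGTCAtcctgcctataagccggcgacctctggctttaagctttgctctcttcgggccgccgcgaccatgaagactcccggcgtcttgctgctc
Gla: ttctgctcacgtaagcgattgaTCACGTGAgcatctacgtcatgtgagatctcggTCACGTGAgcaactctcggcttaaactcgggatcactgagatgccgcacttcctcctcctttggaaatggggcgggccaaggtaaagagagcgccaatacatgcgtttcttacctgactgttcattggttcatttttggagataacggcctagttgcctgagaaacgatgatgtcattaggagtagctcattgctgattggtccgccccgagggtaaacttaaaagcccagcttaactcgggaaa
Ctsa: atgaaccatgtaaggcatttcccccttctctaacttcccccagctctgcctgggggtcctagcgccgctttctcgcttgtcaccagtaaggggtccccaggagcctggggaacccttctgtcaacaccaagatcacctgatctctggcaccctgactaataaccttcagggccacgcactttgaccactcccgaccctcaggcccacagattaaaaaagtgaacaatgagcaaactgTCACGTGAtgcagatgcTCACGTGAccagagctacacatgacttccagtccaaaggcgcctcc
Mcoln1: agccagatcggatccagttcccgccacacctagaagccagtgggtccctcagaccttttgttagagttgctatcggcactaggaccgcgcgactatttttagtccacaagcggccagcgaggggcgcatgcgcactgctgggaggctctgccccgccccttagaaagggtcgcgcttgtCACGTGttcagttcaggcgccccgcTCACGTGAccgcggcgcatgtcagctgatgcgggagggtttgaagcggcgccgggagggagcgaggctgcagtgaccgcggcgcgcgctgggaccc
Lamp1: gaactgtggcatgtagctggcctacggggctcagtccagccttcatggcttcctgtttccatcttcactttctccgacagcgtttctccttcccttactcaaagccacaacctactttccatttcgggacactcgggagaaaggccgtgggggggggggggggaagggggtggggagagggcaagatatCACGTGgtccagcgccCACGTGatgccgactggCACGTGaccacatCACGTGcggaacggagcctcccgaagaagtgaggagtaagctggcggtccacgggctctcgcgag
In these windows the E-boxes began at -245 and -98 from the start in Ctsd, at -227 and -194 in Gla, at -12 and 5 in Ctsa, at -71 and -45 in Mcoln1 and at -61, -45, -28 and -15 in Lamp1, and the 2 response element cores of Ctsd began at -62 and -47. The other genes with an E-box were Arsa, Ctsf, Ctsl, Gaa, Glb1 and Naglu, and the other genes with a response element core were Ctsz, Hexa, Mitf, Naglu, Psap, Scarb2 and Tpp1. At 24 h against DMSO, the 10 tested genes with an E-box had median log2 fold changes of 0.49 in WT and 0.28 in Nrf1-KO cells, and the 20 without an E-box 0.44 and 0.34. The medians of the sets lay close together, and both sets held genes that fell, with Naglu lowest among the first (-0.69 in WT cells) and Tfeb among the second (-1.58). Of the 8 genes with a response element core, the median was 0.54 in WT and 0.32 in Nrf1-KO cells, and of the 22 without it 0.44 and 0.34. By the interaction at 24 h, the 8 held 1 positive and 5 negative calls (median -0.18), and the 22 held 7 and 7 (0.04). At 6 h they held 1 and 3 (-0.02), and 1 and 6 (0.04). Over all genes, 29.7% were positive and 30% negative at 24 h, and 19.8% and 18.4% at 6 h. The difference between these sets was not tested. These are matches of letters in a fixed window, and binding was not measured.

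The 3 transcription factor genes went in different directions. Tfeb (chr17:47737030-47792419, plus strand, GRCm38, as are all gene positions given here) encodes the factor most closely tied to lysosomal genes. It stood at 16.03, 16.9 and 16.4 CPM in the WT DMSO libraries, 11.4, 11.7 and 13.2 CPM at 6 h and 5.18, 5.10 and 6.14 CPM at 24 h. The Nrf1-KO libraries gave 13.6, 15.7 and 11.3 CPM in DMSO, 11.1, 11.1 and 11.6 CPM at 6 h and 2.68, 2.55 and 2.60 CPM at 24 h. The 24 h libraries were the lowest in each line and overlapped with no other condition of it. Tfeb fell in WT cells at 6 h (log2 fold change -0.44) and at 24 h (-1.58 ± 0.11, adjusted p = 1.8e-14), and in the Nrf1-KO line by 24 h (-2.34 ± 0.13, adjusted p = 4.9e-17). The fall was larger in Nrf1-KO cells at 24 h (interaction -0.77 ± 0.19, adjusted p = 0.00084). The 6 h value in Nrf1-KO cells (-0.24) rested on libraries that overlapped, and its call was lost without any of 5 of the 6 libraries compared (adjusted p = 0.051 to 0.3).

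Tfe3 (chrX:7762560-7775202, plus strand) encodes a close relative of TFEB that binds the same motif. Its levels were 51.6, 54.0 and 50.1 CPM in WT DMSO, 102, 98.5 and 98.8 CPM at 6 h and 67.4, 72.1 and 70.3 CPM at 24 h. In Nrf1-KO cells they were 48.8, 48.2 and 44.3 CPM, 77.8, 79.0 and 83.6 CPM and 72.5, 67.4 and 65.3 CPM. Tfe3 was thus highest at 6 h in both lines and stayed above DMSO at 24 h. The rise was 0.94 ± 0.046, adjusted p = 4.4e-18 in WT and 0.77 ± 0.048, adjusted p = 4.4e-15 in Nrf1-KO cells at 6 h, and 0.43 and 0.55 at 24 h. It was the largest called rise of any member at 6 h in WT cells. The difference of the lines at 6 h (-0.17, adjusted p = 0.039) lost its call without any of 5 libraries (adjusted p = 0.079 to 0.11).

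Mitf (chr6:97807052-98021349, plus strand), the third relative and the regulator of pigment cells and osteoclasts, stood at 9.94, 12.8 and 10.4 CPM in WT DMSO, 12.5, 10.5 and 11.5 CPM at 6 h and 10.3, 9.95 and 10.4 CPM at 24 h. The Nrf1-KO libraries gave 10.6, 8.72 and 10.4 CPM, 14.97, 12.9 and 14.3 CPM and 8.94, 8.71 and 9.39 CPM. The WT libraries of the CFZ times overlapped with DMSO, while the 6 h libraries of the Nrf1-KO line lay above it. Mitf rose at 6 h in Nrf1-KO cells (0.49 ± 0.098, adjusted p = 4.9e-05) and gave -0.14 at 24 h, which was not called. In WT cells the values were 0.06 and -0.11 and were not called. With upper-quartile scaling or library size alone, the 24 h values were called as lower in WT (-0.25 and -0.21) and in Nrf1-KO cells (-0.25 and -0.33). The interaction at 6 h (0.43, adjusted p = 0.014) was lost without WT DMSO replicate 2 (adjusted p = 0.069), WT CFZ 6 h replicate 2 (adjusted p = 0.068) or Nrf1-KO CFZ 6 h replicate 1 (adjusted p = 0.057). Per kilobase of exon in WT DMSO, the 3 factors were near the bottom of the list, with Tfe3 at 5.6 CPM per kilobase, Tfeb at 2.9 and Mitf at 1.78, against 382 for Psap, 374 for Lamp1 and 311 for Ctsd at the top.

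**Figure D2:**
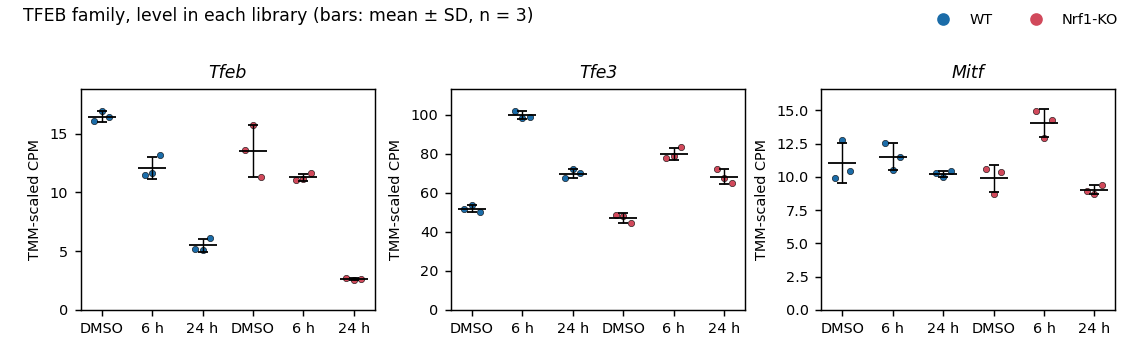
TMM-scaled CPM of Tfeb, Tfe3 and Mitf in each of the 18 libraries, WT in blue and Nrf1-KO in red, in DMSO and after 6 h and 24 h of CFZ (points: libraries, bars: mean ± SD, n = 3). Tfeb was lowest at 24 h in both lines (5.47 ± 0.576 and 2.61 ± 0.0625 CPM), Tfe3 was highest at 6 h in both, and Mitf was highest in Nrf1-KO cells at 6 h (14.0 ± 1.05 CPM).

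The cathepsins and Tpp1 are the proteases of the set, and all 6 that were tested were higher at 24 h in WT cells, and 5 of the 6 in Nrf1-KO cells, where 43.2% and 44.4% of all genes were higher. Ctsd (chr7:142375911-142388038, minus strand), the major aspartic protease of the lysosome, was the protease that differed. Its libraries read 764, 695 and 731 CPM in WT DMSO, 1082, 1102 and 1037 CPM at 6 h and 1563, 1598 and 1607 CPM at 24 h. In Nrf1-KO cells they read 666, 676 and 712 CPM in DMSO, 602, 603 and 654 CPM at 6 h and 687, 724 and 746 CPM at 24 h. The WT libraries climbed in steps that did not overlap, while those of the Nrf1-KO line stayed between 602 and 746 CPM throughout. In WT cells Ctsd rose by 6 h (0.56 ± 0.040, adjusted p = 7.3e-14) and further by 24 h (1.12 ± 0.040, adjusted p = 3.2e-22). In Nrf1-KO cells it was lower at 6 h (-0.15) and not called at 24 h (0.07, adjusted p = 0.1), although with library size alone the 24 h value turned to -0.11 and was called as lower. The interaction was the most negative of all members at both times, with -0.70 ± 0.056, adjusted p = 9.7e-12 for 6 h and -1.05 ± 0.056, adjusted p = 1.5e-16 for 24 h. The annotation places part of the exons of Gm49369 on those of Ctsd on the same strand, and 29.2% of the stretches of Ctsd as long as a read occur in that gene too, so reads of the 2 may not be fully told apart.

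Ctsl (chr13:64359337-64370890, minus strand), a cysteine protease with broad activity, went the other way. Its WT libraries gave 483, 448 and 465 CPM in DMSO, 431, 439.8 and 417 CPM at 6 h and 779, 786 and 779 CPM at 24 h. Its Nrf1-KO libraries gave 738, 739 and 799.9 CPM, 719.5, 739.7 and 754 CPM and 2160.0, 2268 and 2470.0 CPM. The Nrf1-KO libraries were above the WT libraries in every condition, and the gap was widest at 24 h. Ctsl rose by 24 h in WT cells (0.75 ± 0.042, adjusted p = 4.6e-17) and more in Nrf1-KO cells (1.60 ± 0.041, adjusted p = 5.7e-26), with an interaction of 0.85 ± 0.058, adjusted p = 5.8e-14. In DMSO it was already 0.71 higher on the log2 scale in Nrf1-KO cells (adjusted p = 2.3e-15), the largest difference of any member between the lines in DMSO. The annotated exons of Ctsl overlap those of Gm47123 on the other strand over 26.8% of their bases, and it is not given in the sources used here whether counting used strand.

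The remaining proteases rose in both lines at 24 h by less. Ctsb, a cysteine protease, rose by 0.52 in WT and 0.67 in Nrf1-KO cells, Ctsa, the carboxypeptidase that protects neuraminidase and beta-galactosidase, by 0.52 and 0.52, Ctsz by 0.64 and 0.39 and the tripeptidyl peptidase gene Tpp1 by 0.44 and 0.32. Ctsz rose less in Nrf1-KO cells (interaction -0.26, adjusted p = 7.1e-05), whereas the interaction of Ctsa was -0.01 and not called. Ctsf, the protease that did not pass the filter, had 0 reads in all 6 WT libraries of DMSO and 6 h and 2, 5 and 5 reads in the WT libraries at 24 h. In Nrf1-KO cells it had 2, 3 and 4 reads in all over the 3 libraries of DMSO, 6 h and 24 h, too few to compare.

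The glycosidases, which strip sugars from glycoproteins, glycolipids and glycosaminoglycans, held genes that rose and genes that fell. Of the 10 tested, 7 were higher and 2 lower at 24 h in WT cells (43.2% and 40.5% over all genes), and 6 higher and 2 lower in Nrf1-KO cells (44.4% and 41.1%), with Manba among the higher in both. Gaa (chr11:119267887-119285454, plus strand), the acid alpha-glucosidase that degrades glycogen, stood at 175, 168 and 171 CPM in WT DMSO, 205, 202 and 205 CPM at 6 h and 389, 384 and 401 CPM at 24 h. The Nrf1-KO libraries stood at 194, 188 and 181 CPM, 192, 186 and 196 CPM and 286, 266 and 252 CPM. The 24 h libraries were above DMSO in both lines, and those of WT cells were above those of Nrf1-KO cells. Gaa rose by 1.19 ± 0.038, adjusted p = 1.8e-23 in WT and by 0.52 ± 0.038, adjusted p = 5.1e-14 in Nrf1-KO cells at 24 h, with an interaction of -0.68 ± 0.053, adjusted p = 2.1e-12.

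Gla (chrX:134588149-134601125, minus strand), alpha-galactosidase A, responded differently in the lines at 6 h by the test. WT libraries gave 27.6, 25.9 and 26.9 CPM in DMSO, 30.9, 30.3 and 31.9 CPM at 6 h and 57.8, 58.6 and 58.4 CPM at 24 h. Nrf1-KO libraries gave 31.9, 33.6 and 34.01 CPM, 28.0, 27.3 and 24.1 CPM and 71.5, 72.6 and 83.7 CPM. At 6 h the WT libraries lay above and the Nrf1-KO libraries below their DMSO controls, and at 24 h both lines were far above. The interaction was -0.52 ± 0.093, adjusted p = 3.5e-05 for 6 h and 0.07 ± 0.079, adjusted p = 0.46, for 24 h. The 6 h value in WT cells (0.21) lost its call under upper-quartile scaling (0.10) and library size alone (0.08), whereas that in Nrf1-KO cells was -0.31 (adjusted p = 0.00011).

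Hexa (chr9:59539540-59565109, plus strand), the alpha subunit of the enzyme that degrades GM2 ganglioside, rose in both lines. It was measured at 128, 116 and 117 CPM in WT DMSO, 126, 124 and 120.4 CPM at 6 h and 258, 254 and 259.9 CPM at 24 h. Nrf1-KO cells gave 159, 168 and 166 CPM, 147, 149.8 and 153 CPM and 288, 289 and 311 CPM. The 24 h libraries of each line were clear of all its others, and the Nrf1-KO libraries were above the WT ones in each condition. The rise at 24 h was 1.10 in WT and 0.85 in Nrf1-KO cells, with an interaction of -0.25 ± 0.053, adjusted p = 0.00018.

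Manba (chr3:135485611-135571404, plus strand), beta-mannosidase, had the largest fold changes of the set on the fewest reads. The WT libraries held 6, 4 and 2 reads in DMSO, 3, 9 and 2 reads at 6 h and 27, 18 and 23 reads at 24 h. The Nrf1-KO libraries held 4, 2 and 8 reads, 5, 7 and 6 reads and 63, 103 and 59 reads. Every 24 h library was above every DMSO library, and the gene passed the filter on low counts only through its 24 h libraries, so that it had to differ to be tested at all. The fitted fold change, 2.74 ± 0.45 in WT and 4.21 ± 0.32 in Nrf1-KO cells, is therefore given as a description with no p. The interaction at 24 h (1.46 ± 0.74) was not called. It rests on the same 24 h libraries and is likewise given with no p.

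Naglu (chr11:101070012-101077672, plus strand), which removes N-acetylglucosamine from heparan sulfate, fell at both times in both lines. Its libraries read 33.2, 33.3 and 34.01 CPM in WT DMSO, 24.8, 24.4 and 23.8 CPM at 6 h and 20.3, 20.9 and 20.9 CPM at 24 h. In Nrf1-KO cells they read 38.7, 43.8 and 42.3 CPM, 30.1, 26.6 and 31.8 CPM and 18.1, 18.4 and 17.9 CPM. The Nrf1-KO line began above the WT line and ended below it, with no overlap at either point. The change at 24 h was -0.69 ± 0.061, adjusted p = 6.2e-12 in WT and -1.20 ± 0.058, adjusted p = 1.2e-18 in Nrf1-KO cells, and the interaction was -0.51 ± 0.086, adjusted p = 6.9e-06.

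Gusb (chr5:129989011-130003049, minus strand), beta-glucuronidase, was the member that fell most at 6 h in WT cells. The libraries gave 36.4, 34.8 and 36.6 CPM in WT DMSO, 22.0, 25.9 and 24.7 CPM at 6 h and 26.4, 27.0 and 24.4 CPM at 24 h. The Nrf1-KO libraries gave 46.8, 44.4 and 43.7 CPM, 30.5, 31.2 and 35.5 CPM and 39.8, 38.6 and 41.8 CPM. The CFZ libraries were below DMSO at both times in both lines, and the Nrf1-KO line had come back towards its DMSO level by 24 h. The fall was -0.57 at 6 h and -0.47 at 24 h in WT cells, and -0.48 and -0.16 in Nrf1-KO cells (interaction at 24 h 0.31 ± 0.082, adjusted p = 0.0018). Of the other glycosidases, Neu1 (neuraminidase) rose by 1.15 and 1.03 at 24 h in WT and Nrf1-KO cells, and Man2b1 (alpha-mannosidase) by 0.95 and 1.22. Glb1 (beta-galactosidase) rose in WT cells (0.32) and was -0.05 and not called in Nrf1-KO cells, although upper-quartile scaling (-0.16), library size alone (-0.24) and no expression filter (-0.10) each called it as lower there, with an interaction of -0.37 ± 0.063, adjusted p = 7.6e-06. Fuca1 (fucosidase) was not called at 24 h in either line (-0.06 and -0.03), but was called as lower in both under upper-quartile scaling (-0.20 and -0.14) and when only library size was used (-0.17 and -0.21).

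The 3 sulfatases, which remove sulfate from glycosaminoglycans and sulfatide, were lower at both times in both lines, 12 calls in all, where 35% to 41.1% of all genes were lower in each of these comparisons, and each call at 24 h was kept without any 1 library. Arsb (chr13:93771630-93943016, plus strand), which acts on dermatan and chondroitin sulfate, was at 69.8, 69.7 and 71.2 CPM in WT DMSO, 60.6, 62.1 and 57.7 CPM at 6 h and 30.6, 28.0 and 31.5 CPM at 24 h. In Nrf1-KO cells it was at 107, 100.1 and 103 CPM, 93.7, 85.4 and 88.1 CPM and 51.5, 53.1 and 45.7 CPM. It fell stepwise in both lines, and the Nrf1-KO libraries were above the WT libraries in every condition. The change at 24 h was -1.23 ± 0.057, adjusted p = 3.3e-19 in WT and -1.04 ± 0.048, adjusted p = 3.2e-19 in Nrf1-KO cells. Annotated exons on the other strand overlap 39.9% of the exonic bases of Arsb.

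Arsa (chr15:89472476-89477425, minus strand), arylsulfatase A, which acts on sulfatide, read 97.4, 88.1 and 92.0 CPM in WT DMSO, 65.7, 64.0 and 66.4 CPM at 6 h and 62.8, 62.7 and 62.6 CPM at 24 h. The Nrf1-KO libraries read 117, 124 and 122 CPM, 97.4, 95.7 and 101 CPM and 87.0, 81.8 and 84.8 CPM. Most of the fall of Arsa was reached by 6 h in WT cells, where the step from 6 h to 24 h was not called (-0.06, adjusted p = 0.23). It was -0.50 and -0.56 at 6 h and 24 h in WT cells and -0.31 and -0.52 in Nrf1-KO cells. Galns (chr8:122578242-122611463, minus strand), which acts on keratan and chondroitin sulfate, read 17.7, 18.8 and 18.6 CPM, 14.4, 13.2 and 13.5 CPM and 10.6, 11.4 and 11.6 CPM in the WT groups in the same order. The Nrf1-KO line gave 19.5, 22.0 and 19.5 CPM, 17.0, 16.9 and 16.3 CPM and 12.6, 11.5 and 13.2 CPM. The Nrf1-KO libraries were above the WT libraries in DMSO and at 6 h and overlapped with them at 24 h. The change at 24 h was -0.70 ± 0.077, adjusted p = 8.5e-10 in WT and -0.71 ± 0.071, adjusted p = 9e-11 in Nrf1-KO cells. The interaction at 24 h was -0.01 ± 0.11, not called.

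The lipid hydrolases had no common direction. Smpd1 (chr7:105554360-105558389, plus strand), acid sphingomyelinase, was at 60.7, 56.1 and 61.2 CPM in WT DMSO, 49.1, 48.2 and 48.0 CPM at 6 h and 55.8, 53.1 and 53.9 CPM at 24 h. Nrf1-KO libraries were at 49.5, 52.4 and 52.2 CPM, 35.5, 36.8 and 35.7 CPM and 30.1, 30.7 and 32.3 CPM. It dipped and partly came back in WT cells, and went on falling in Nrf1-KO cells, whose libraries were below those of WT cells in every condition. The change at 24 h was -0.13 in WT and -0.73 ± 0.047, adjusted p = 2.5e-15 in Nrf1-KO cells, and the interaction was -0.59 ± 0.065, adjusted p = 2.3e-09.

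Lipa (chr19:34492318-34527474, minus strand), the acid lipase that frees cholesterol and fatty acids from lipoprotein cargo, was at 124, 115 and 124 CPM in WT DMSO, 129.9, 126 and 120.3 CPM at 6 h and 192, 197 and 198 CPM at 24 h. The Nrf1-KO line was at 118, 116 and 124.6 CPM, 98.1, 104 and 97.8 CPM and 149, 156 and 154 CPM. The lines overlapped in DMSO and did not overlap at 6 h or 24 h, when the Nrf1-KO line was the lower. Lipa rose at 24 h by 0.69 ± 0.038, adjusted p = 3e-17 in WT and 0.35 ± 0.038, adjusted p = 4.7e-10 in Nrf1-KO cells, and the interactions were -0.31, adjusted p = 5.1e-05, for the earlier time and -0.34, adjusted p = 2.2e-06, for the later. Asah1 (acid ceramidase) was slightly lower at 6 h in both lines (-0.17 and -0.13, the second lost without Nrf1-KO DMSO replicate 3 or Nrf1-KO CFZ 6 h replicate 1, adjusted p = 0.072 to 0.1) and was 0.04 and -0.03 at 24 h, not called. Under upper-quartile scaling its 24 h value turned to -0.09 in WT cells and was -0.14 in Nrf1-KO cells, both called as lower, and in Nrf1-KO cells library size alone (-0.22) and no expression filter (-0.08) called it as lower as well.

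The 3 cofactors and carriers (Psap, Npc2 and Grn) were higher at 24 h in both lines, where 43.2% (WT) and 44.4% (Nrf1-KO) of all genes were higher. Npc2 (chr12:84754562-84773152, minus strand), which binds cholesterol in the lysosomal lumen and hands it to NPC1, read 252, 235 and 249 CPM in WT DMSO, 244, 244 and 245 CPM at 6 h and 331, 335 and 341 CPM at 24 h. In Nrf1-KO cells it read 223, 227 and 237 CPM, 234, 238 and 242 CPM and 425, 460.2 and 481 CPM. Neither 6 h value was called (-0.01 and 0.05), although that of WT cells was called as lower under upper-quartile scaling (-0.11) and when only library size was used (-0.14). At 24 h all 3 Nrf1-KO libraries were above all 3 WT libraries. The rise was 0.45 ± 0.038, adjusted p = 1.5e-12 in WT and 0.99 ± 0.037, adjusted p = 1.6e-21 in Nrf1-KO cells, and the interaction 0.54 ± 0.053, adjusted p = 3.2e-10. Psap, the precursor of the saposins that present sphingolipids to their hydrolases, was the highest of the 35 per kilobase of exon, and rose from 1048 ± 29.8 to 2142 ± 12.5 CPM in WT cells (1.03) and from 1332 ± 11.2 to 2507 ± 35.1 CPM in Nrf1-KO cells (0.91). Grn, the precursor of the granulins, was lower at 6 h (-0.30 and -0.22) and higher at 24 h (0.09 and 0.20), but its 24 h value in WT cells turned to -0.04 under upper-quartile scaling and to -0.01 when only library size was used, and was lost without WT DMSO replicate 1 (0.07) or 3 (0.07), and that in Nrf1-KO cells was 0.02 with library size alone.

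Of the 6 membrane protein genes, Npc1, which carries cholesterol out of the lysosome, rose most and at both times in both lines. Its libraries gave 53.5, 56.2 and 52.2 CPM in WT DMSO, 85.2, 76.3 and 79.3 CPM at 6 h and 195, 188 and 190.2 CPM at 24 h. The Nrf1-KO libraries gave 49.0, 44.9 and 43.4 CPM, 85.8, 77.1 and 74.1 CPM and 205, 194 and 177 CPM. The conditions of each line did not overlap, and the lines overlapped at 6 h and 24 h but not in DMSO, where the Nrf1-KO line was lower (-0.25). Npc1 rose at 6 h by 0.57 ± 0.058, adjusted p = 2.7e-10 in WT and 0.80 ± 0.060, adjusted p = 3.2e-13 in Nrf1-KO cells, and at 24 h by 1.82 ± 0.053, adjusted p = 1.5e-24 and 2.08 ± 0.053, adjusted p = 4.7e-26. The interaction was 0.26 at 24 h (adjusted p = 0.0048), and the 6 h interaction (0.23, adjusted p = 0.028) was lost without any of 7 libraries (adjusted p = 0.053 to 0.14).

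Scarb2 (chr5:92441314-92506833, minus strand), also known as LIMP-2, the receptor that carries beta-glucocerebrosidase to the lysosome, was called in opposite directions in the lines at 24 h. Its libraries read 70.2, 69.7 and 68.7 CPM in WT DMSO, 60.7, 63.4 and 60.0 CPM at 6 h and 60.0, 62.7 and 63.5 CPM at 24 h. In Nrf1-KO cells they read 79.1, 76.6 and 83.4 CPM, 75.4, 75.9 and 80.3 CPM and 98.9, 101 and 98.2 CPM. WT libraries at 24 h were below DMSO and Nrf1-KO libraries at 24 h above it. The values were -0.16 ± 0.042, adjusted p = 0.00091 in WT and 0.32 ± 0.038, adjusted p = 5.3e-09 in Nrf1-KO cells, and the interaction 0.48 ± 0.057, adjusted p = 1.5e-08. Mcoln1, the calcium channel that releases calcium from the lysosome, was higher at 24 h in Nrf1-KO cells (0.32) and -0.12 (adjusted p = 0.052) in WT cells, where 5 of the other settings called it as lower (-0.26 with upper-quartile scaling, -0.22 with library size alone, -0.18 with no expression filter, -0.15 with the compared groups only and -0.12 with a mean count of at least 10), with an interaction of 0.44 ± 0.077, adjusted p = 1.3e-05. The structural proteins Lamp1 (0.45 and 0.24) and Lamp2 (0.52 and 0.48) rose in both lines at 24 h, although the value of Lamp1 in Nrf1-KO cells was 0.06 and not called with library size alone. The tetraspanin gene Cd63 fell in both lines (-0.21 and -0.52), and more in Nrf1-KO cells (interaction -0.31 ± 0.053, adjusted p = 1e-05).

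**Figure D3:**
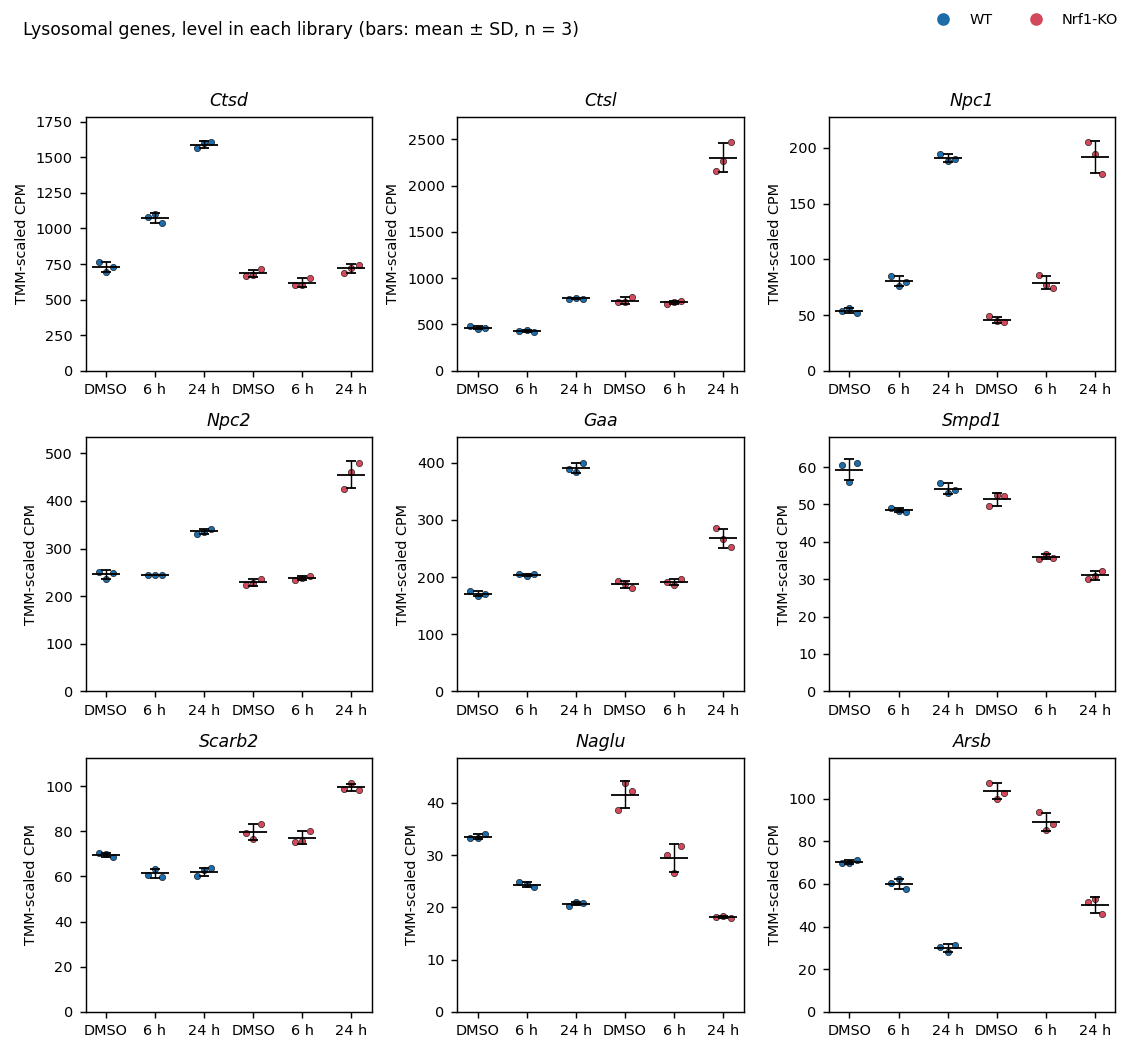
TMM-scaled CPM of 9 lysosomal genes in each of the 18 libraries, WT in blue and Nrf1-KO in red, in DMSO and after 6 h and 24 h of CFZ (points: libraries, bars: mean ± SD, n = 3, axes from 0). Ctsd and Gaa were higher at 24 h in WT than in Nrf1-KO cells (1589 ± 23.6 against 719 ± 29.9 CPM for Ctsd), Ctsl and Npc2 were higher in Nrf1-KO cells (781 ± 4.09 against 2300.0 ± 157 CPM for Ctsl), Npc1 rose to like levels in both, and Arsb and Naglu fell in both.

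Whether the response to CFZ depended on the line was tested by the interaction term, the log2 fold change in Nrf1-KO cells minus that in WT cells. At 6 h, 3 of the 34 genes had a positive and 9 a negative interaction, where 38.3% of all genes were called (19.8% positive, 18.4% negative), and at 24 h 10 had a positive and 12 a negative one, where 59.8% were called (29.7% positive, 30% negative). At least 2-fold, 0 were called at 6 h (1.21% positive and 1.57% negative over all genes) and only Ctsd at 24 h (4.07% and 4.53%). The medians over the 34 genes were 0.03 and -0.02, against 0.02 and 0.01 (log2) over all genes. Among called genes at 24 h the most positive were Ctsl (0.85), Npc2 (0.54) and Scarb2 (0.48) and the most negative Ctsd (-1.05), Tfeb (-0.77) and Gaa (-0.68). Among those at 6 h the most negative were Ctsd, Gla and Lipa. Of the 12 calls at 6 h, 6 (Arsa, Hexa, Mitf, Npc1, Psap and Tfe3) were lost without some 1 library, and of the 22 at 24 h, 3 (Arsb, Grn and Psap). At 24 h most members were called in the same direction in both lines. At that time 19 were higher in both lines, 8 lower in both, and Fuca1, Asah1 and Mitf called in neither. At 6 h, 3 were higher in both and 14 lower in both, and Ctsd and Gla were higher in WT and lower in Nrf1-KO cells. The share of all genes called alike in both lines is not given here, and 83.8% (WT) and 85.5% (Nrf1-KO) of all genes were called at 24 h. Across the 34 genes, the fold changes of the lines had a Pearson correlation of 0.775 at 6 h and 0.912 at 24 h (Spearman 0.745 and 0.866). Without Manba, which passed the filter only through its 24 h libraries, it was 0.757 and 0.889 over 33 genes. These values are a description across genes, which are not independent of each other, and no correlation over all genes is given beside them. The lines share no libraries.

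**Figure D4:**
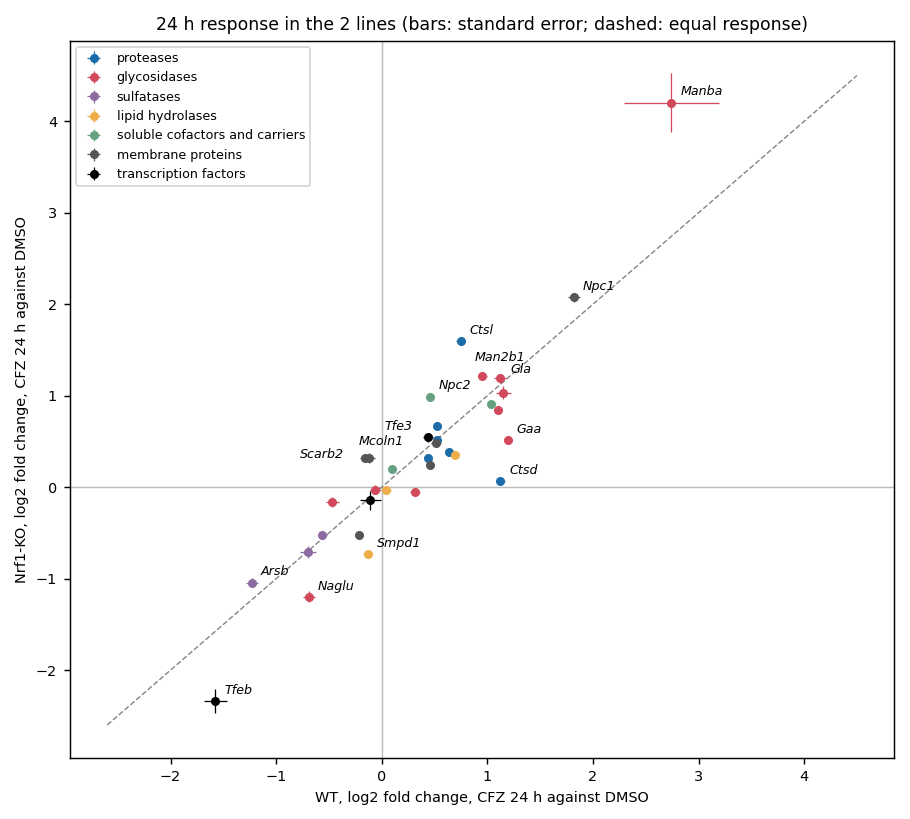
Log2 fold change at 24 h of CFZ against DMSO in WT (horizontal) and Nrf1-KO cells (vertical) for the 34 tested genes, coloured by role, with standard errors and a dashed line of equal response. Most genes were called in the same direction in WT and Nrf1-KO cells, but 22 of the 34 had a called interaction (10 positive, 12 negative), where 59.8% of all genes were called. Ctsd (1.12 and 0.07) lies far below the dashed line, Ctsl (0.75 and 1.60) far above it, and Manba carries the widest errors.

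In DMSO alone the Nrf1-KO line held more RNA of many lysosomal genes than the WT line, with 18 of the 34 higher and 7 lower and a median difference of 0.11, against -0.02 over all genes, where 54.7% of all genes were called (25.7% higher, 29.1% lower). The differences were small, and 0 of the 34 were 2-fold, against 3.2% of all genes higher and 1.77% lower. The highest were Ctsl (0.71), Arsb (0.56), Hexa (0.45), Arsa (0.38) and Cd63 (0.37), and the lowest Tfeb (-0.31), Npc1 (-0.25) and Smpd1 (-0.20). The difference of Tfeb was lost without Nrf1-KO DMSO replicate 3 (-0.16, adjusted p = 0.11). The count of 7 lower genes came to 4 without any 1 of 5 libraries of the 6 compared, and Ctsd, Mcoln1, Npc2, Tfe3 and Tfeb each lost their call without some 1 library. So did Ctsz and Lamp1 among the higher genes. At 6 h, 17 were higher and 6 lower in Nrf1-KO cells, where 61.3% of all genes were called (30.5% higher, 30.8% lower), and at 24 h 17 were higher and 11 lower, where 72% were called (35.6% higher, 36.4% lower). At least 2-fold, there were 0 at 6 h, against 4.31% of all genes higher and 3% lower, and 2 higher and 2 lower at 24 h, against 6.71% and 5.53%. Without some 1 library, 4 calls were lost at 6 h (Ctsz, Gaa, Gla and Mitf) and 3 at 24 h (Asah1, Lamp1 and Naglu). Apart from Manba, the largest differences at 24 h were that of Ctsl (1.56) upward and those of Ctsd (-1.15) and Tfeb (-1.08) downward. Manba, which passed the filter on low counts only through its 24 h libraries, is included in the counts at 24 h. Without it 16 of 33 genes were higher and 11 lower at 24 h, 1 and 2 of them at least 2-fold.

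Other genes of the lysosome were followed with lists drawn up from textbook knowledge, but with earlier results of these data known. The V-ATPase, the pump that acidifies the lysosome, moved most evenly. Of 18 subunit genes tested, 17 were higher and 0 lower at 24 h in WT cells (median 0.90; the gene not called was Atp6v1g2, at -0.37), and 15 were higher and 1 lower in Nrf1-KO cells (median 0.46). Over all genes, 43.2% were higher and 40.5% lower in WT and 44.4% and 41.1% in Nrf1-KO cells. Their summed level was 1546 ± 42, 1885 ± 31.1 and 2759 ± 26.8 CPM in WT DMSO, 6 h and 24 h, and 1695 ± 40.8, 1789 ± 52.1 and 2321 ± 68.1 CPM in Nrf1-KO cells. At 24 h, 12 of the 18 had a negative and 0 a positive interaction (median -0.23), and at 6 h 5 and 0, against 30% negative and 29.7% positive over all genes at 24 h and 18.4% and 19.8% at 6 h. Atp6v1h, a regulatory subunit of the cytosolic sector, rose most (2.06 ± 0.043, adjusted p = 1.7e-28 in WT and 1.10 ± 0.043, adjusted p = 2.8e-21 in Nrf1-KO cells). Atp6v1a, the catalytic subunit, had the most negative interaction (-1.19 ± 0.050, adjusted p = 4.5e-19), rising from 170.1 ± 2.8 to 379 ± 10.5 CPM in WT cells and measuring 246 ± 5.89 and 240.2 ± 4.03 CPM in Nrf1-KO cells.

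**Figure D5:**
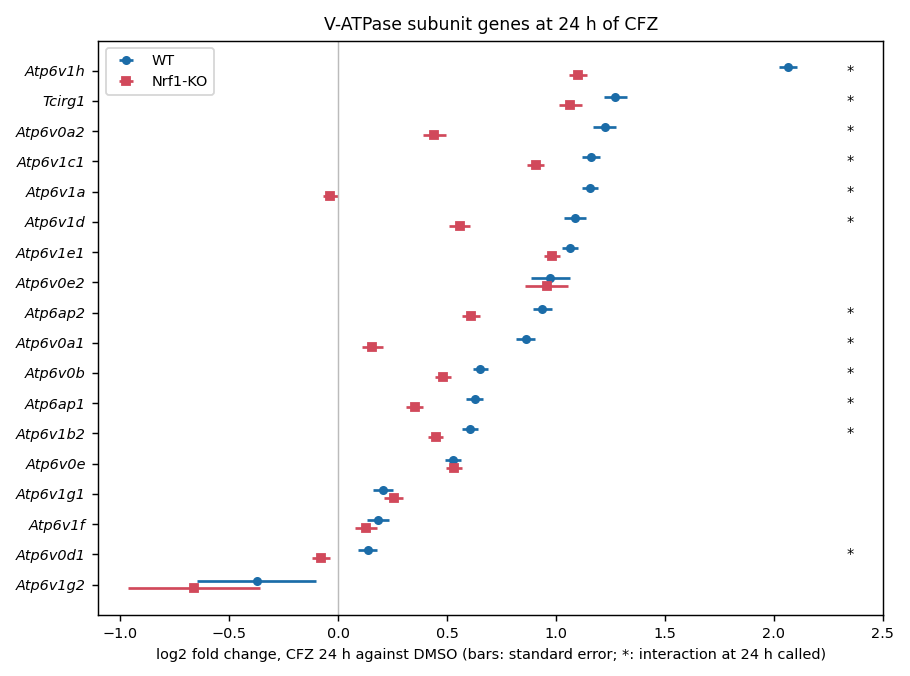
Log2 fold change at 24 h of CFZ against DMSO for the 18 tested V-ATPase subunit genes, in WT (circles) and Nrf1-KO cells (squares), with standard errors. An asterisk marks the 12 genes with a called interaction, and all 12 rose less or fell in Nrf1-KO cells, such as Atp6v1h (2.06 and 1.10) and Atp6v1a (1.16 and -0.04).

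Of 28 other hydrolases and activators tested, 3 were higher and 18 lower at 6 h and 18 higher and 6 lower at 24 h in WT cells. In Nrf1-KO cells 1 was higher and 17 lower at 6 h, and 16 were higher and 9 lower at 24 h. In WT cells 75% of this list was called at 6 h and 85.7% at 24 h, near the 71.9% and 83.8% of all genes. By direction, 10.7% were higher and 64.3% lower at 6 h (35.6% and 36.2% over all genes), and 64.3% and 21.4% at 24 h (43.2% and 40.5%). In Nrf1-KO cells the shares were 3.57% and 60.7% at 6 h (34.5% and 35%), and 57.1% and 32.1% at 24 h (44.4% and 41.1%). The largest rise at 24 h was that of Hgsnat, the acetyltransferase of heparan sulfate breakdown, at 2.72 ± 0.037, adjusted p = 5.9e-33 in WT and 2.66 ± 0.038, adjusted p = 9.2e-33 in Nrf1-KO cells, and the largest fall that of the sulfatase gene Arsg (-2.18 and -1.47). Of the 6 positive and 10 negative interactions at 24 h (21.4% and 35.7%, against 29.7% and 30% over all genes), the ends were Prcp, a carboxypeptidase (0.88), and Siae (-0.72). Among 34 other membrane and sorting genes, 25 were higher and 5 lower at 24 h in each line, where 43.2% (WT) and 44.4% (Nrf1-KO) of all genes were higher and 40.5% and 41.1% lower. Cd68 rose most in WT cells (2.26) and Abcb9, a peptide transporter, fell most (-1.53 and -1.67). The lipid transporter gene Abca2 had the most negative interaction at both times (-1.07 and -1.52). Cln3 read 1.09 ± 0.203 CPM in WT DMSO and 0 in all 6 Nrf1-KO libraries of DMSO and 6 h, so its fold changes depend on the prior count and are not given. It is still counted among the 25 higher genes of the Nrf1-KO line at 24 h.

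Genes that control where TFEB and TFE3 go in the cell went both ways, with 13 of 26 higher and 10 lower at 24 h in WT cells and 12 and 12 in Nrf1-KO cells. That is 88.5% and 92.3% called, near the 83.8% and 85.5% of all genes. Ywhag, a 14-3-3 protein of the kind that holds phosphorylated TFEB in the cytosol, rose most at 6 h (1.74 and 1.38). Rptor, the subunit of mTORC1 that binds its substrates, rose most at 24 h in WT cells (1.32 ± 0.040, adjusted p = 4.4e-24) and had the most negative interaction at both times (-0.93 and -0.97). Ppp3cc, a catalytic subunit of calcineurin, the phosphatase that acts on TFEB, fell most at 24 h (-1.73 and -1.57). Between the lines, the lowest value of the list was that of the Rag GTPase gene Rragd in each condition. In Nrf1-KO against WT cells it was -4.2 in DMSO, -4.84 at 6 h and -3.96 at 24 h. Rragd was measured with wide error, at -0.75 ± 0.25 for 6 h against DMSO in WT cells and -1.38, not called, in Nrf1-KO cells. Its levels are not given here, and the size of the differences between the lines is uncertain. Of 13 autophagy genes, 10 were higher and 2 lower at 24 h in WT cells, and 9 and 2 in Nrf1-KO cells, against 43.2% and 40.5% and 44.4% and 41.1% of all genes. Sqstm1, the receptor p62, rose at 6 h by 2.46 ± 0.036, adjusted p = 9.8e-32 in WT and 1.89 ± 0.036, adjusted p = 6.7e-29 in Nrf1-KO cells, and Gabarapl1, a protein of the autophagosome membrane, had the most negative interaction at both times (-1.39 and -0.73).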

How the data were processed

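RNA from NIH-3T3 cells was sequenced by the authors from 18 libraries (poly(A)-selected, stranded mRNA kit, paired reads on an Illumina HiSeq) and processed with the RNA Express application, which runs STAR and DESeq2. Tool versions, the genome build, the annotation and whether counting used strand are not given in the sources used here. The deposited values were raw counts per gene symbol for 23420 rows, among them 6577 rows that held no reads at all, and 2 symbols stood on 2 rows each. No column was left out for belonging to a sample outside the labels.

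Groups were taken from the sample titles, 3 libraries to a group. The study calls them biological replicates. Replicate pairs differed by more than counting noise (chi-square per degree of freedom 1.44 to 8.47), and log2 CPM correlated at 0.994 or above within groups.

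Counts were filtered with filterByExpr (minimum count 10, minimum total 15), scaled by TMM and fitted over all 6 groups with edgeR 4.0.16 in R 4.3.3 (quasi-likelihood F-test, Benjamini-Hochberg adjustment over 11762 genes, threshold 0.05). All adjusted p-values are from that fit, and standard errors were computed from the fold change and its F statistic. With 3 libraries a group, effects that are small against the common biological coefficient of variation of 3.13% were the least certain, and at low counts the limit was counting error. There were 11 comparisons: CFZ times against DMSO and each other, genotypes in each condition, and interactions. The steps were tested on simulated data. Alternatives were DESeq2 1.42.0, upper-quartile scaling, library size alone, no expression filter, a mean count of at least 10, the compared groups only, a replicate block, each library left out and a minimum fold of 2.

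Per-library values were given for Tfeb, Tfe3, Mitf and the members with the 3 largest and 3 smallest called fold changes in any CFZ comparison, interaction or genotype comparison in DMSO, and from other lists the ends of each comparison. The members and lists were chosen with earlier results of these data known. Gene positions are from the GENCODE annotation of GRCm38 and promoters from RefSeq (GRCm38.p6), and were matched by symbol. Replicate numbers did not pair libraries (correlation of deviations -0.0494 to 0.0972 over 45 same-numbered pairs).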

Additional observations from a re-analysis of the deposited data

Results flagged for a closer look

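The response to CFZ differed between the lines, by the interaction term of the edgeR fit, for 12 lysosomal genes at 6 h and 22 at 24 h, where 38.3% and 59.8% of all genes were called. Values are the log2 fold change in Nrf1-KO cells minus that in WT cells. At 6 h the negative ones were Ctsd (-0.70), Gla (-0.52), Lipa (-0.31), Lamp2 (-0.23), Gaa (-0.22), Smpd1 (-0.22), Hexa (-0.17), Tfe3 (-0.17) and Psap (-0.13), and the positive ones were Mitf (0.43), Npc1 (0.23) and Arsa (0.20). Those of Arsa, Hexa, Mitf, Npc1, Psap and Tfe3 were lost without some 1 library. Under other settings, Tfe3 lost its call with DESeq2, upper-quartile scaling and library size alone. Psap lost it with the last 2 of these and Hexa with upper-quartile scaling, while Man2b1, Scarb2 and Cd63 gained a call under some setting.

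At 24 h the proteases gave Ctsd (-1.05) and Ctsz (-0.26) as negative and Ctsl (0.85) and Ctsb (0.14) as positive. Among the glycosidases, Gaa (-0.68), Naglu (-0.51), Glb1 (-0.37) and Hexa (-0.25) were negative and Gusb (0.31) and Man2b1 (0.27) were positive. The sulfatase Arsb was positive (0.19), and the lipid hydrolases Smpd1 (-0.59) and Lipa (-0.34) were negative. Of the cofactors, Npc2 (0.54) and Grn (0.11) were positive and Psap (-0.12) was negative. Of the membrane proteins, Scarb2 (0.48), Mcoln1 (0.44) and Npc1 (0.26) were positive, whereas Cd63 (-0.31) and Lamp1 (-0.21) were negative, and Tfeb was negative (-0.77). Those of Arsb, Grn and Psap were lost without some 1 library. With library size alone Ctsb (0.07), Arsb (0.11) and Grn (0.03) lost their call. Arsb also lost it with DESeq2, Psap with upper-quartile scaling, and Psap and Grn with no expression filter or the compared groups only. Tpp1, Asah1 and Manba, the last on few reads, gained a call under some setting.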

How the results depend on the processing

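Over 5265 values of single lysosomal genes under the alternatives, 4983 kept their direction and side of the threshold, 183 lost and 88 gained a call and 11 reversed. The first count includes 145 changes of sign where neither fit made a call. Reversals came with scaling only. With upper-quartile scaling they were Ctsb at 6 h (-0.092) and Asah1 (-0.094) and Grn (-0.044) at 24 h in WT cells, and Psap at 6 h (-0.001) in Nrf1-KO cells. With library size alone they were Ctsb (-0.115) and Hexa (-0.094) at 6 h and Grn (-0.012) at 24 h in WT cells, and Ctsb (-0.081), Psap (-0.038) and Lamp1 (-0.092) at 6 h and Ctsd (-0.113) at 24 h in Nrf1-KO cells. Upper-quartile scaling put the median of all genes in WT cells at -0.13 at 6 h and -0.11 at 24 h, and library size alone put it at -0.15 in WT cells at 6 h and at -0.12 and -0.15 in Nrf1-KO cells at 6 h and 24 h. The share of all called genes that were higher went from 49.6% to 37.9% (upper quartile) and 35.4% (library size) in WT cells at 6 h. With library size alone the 6 h share in Nrf1-KO cells was 36.4% in place of 49.7% and the 24 h share 41.6% in place of 52%, and between the lines it was 57.7% in place of 46.9% in DMSO and 60.8% in place of 49.8% at 6 h.

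The count of lower genes at 24 h in Nrf1-KO cells was 13 with library size alone, and that of positive interactions at 6 h was 5 with upper-quartile scaling. The count of genes lower in Nrf1-KO DMSO was 4 with DESeq2, upper-quartile scaling, no expression filter or the compared groups only, and 3 with library size alone. A minimum fold of 2 left 0 higher and 0 lower genes at 6 h in either line, 8 and 2 at 24 h in WT cells, 6 and 3 at 24 h in Nrf1-KO cells, and between 6 h and 24 h 5 and 2 in WT and 6 and 1 in Nrf1-KO cells. It left 0 and 0 interactions at 6 h and 0 and 1 at 24 h, and between the lines 0 and 0 in DMSO, 0 and 0 at 6 h and 2 and 2 at 24 h. Counting the members except Manba, a choice made after seeing the data, moved each count of higher or lower genes by at most 1. Leaving out 1 library gave 0 to 3 positive interactions at 6 h (0 without WT CFZ 6 h replicate 2, 1 without WT DMSO replicate 1 or Nrf1-KO CFZ 6 h replicate 1) and 4 to 5 genes lower in Nrf1-KO DMSO. The cause of these changes was not tested.

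With the replicate number as a block, 1 call was gained (the interaction of Tpp1 at 24 h, -0.12, adjusted p = 0.04 in edgeR) and no other call of a lysosomal gene changed. Since the numbers do not pair the libraries, the block is given only as a check. Depth limited Ctsf and Manba, with at most 5 and 103 reads in a library.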
